A study of Mus musculus with 11 samples.

Results

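Of the genes in the deposited count table, 9 of 24421 are described here as regulators and targets of the integrated stress response (ISR): Atf4, Atf5, Ddit3, Trib3, Ddit4, Sesn2, Asns, Cth and Chac1. They were chosen by symbol, as established parts of that pathway, with earlier results of these data known. Each was found once in the table by its Entrez identifier. Of the 9, 8 had enough counts to be tested, and Cth did not.

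The RNA came from natural killer (NK) cells carrying Ly49H, an activating receptor for a mouse cytomegalovirus (MCMV) protein, sorted from spleens of C57BL/6 mixed bone marrow chimeras. The sort kept TCRb- CD3e- NK1.1+ DX5+ Ly49H+ cells. The chimeras mixed marrow of both genotypes, told apart by CD45.1 on the wild-type (WT) side and CD45.2 on the side deficient in LDHA (KO). LDHA, a lactate dehydrogenase subunit, converts pyruvate to lactate at the end of glycolysis.

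The 11 libraries form 4 groups by title: WT D0 (n = 2), KO D0 (n = 3), WT D2 (n = 3) and KO D2 (n = 3). MCMV infection in vivo is given as the treatment of all 4 groups, and all 11 libraries carry a label of day 2 after infection, those titled D0 included. D0 and D2 are used here only as title terms. The labels leave it unclear whether the D0 groups were infected. For libraries with WT in the title the genotype label lists both genotypes, and the title was followed. Per the labels every sample comes from its own mouse. How Ldha was deleted, or whether a Cre line was used, is not given in them. The comparisons ask how each gene differed between genotypes at each title day, how D2 differed from D0 within a genotype, and whether that change differed between genotypes.

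In the ISR, kinases that sense amino acid shortage, misfolded protein, double-stranded RNA or haem shortage phosphorylate the translation factor eIF2. General translation falls, while translation of the Atf4 mRNA rises through short open reading frames upstream of its coding sequence. Atf4 mRNA is therefore not a reading of ATF4 protein or of ISR activity. ATF4 pairs with other bZIP proteins and activates genes for amino acid synthesis, uptake and tRNA charging, and under lasting stress genes linked to cell death, such as Ddit3.

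Promoter sequence is shown for the genes on which the results turn, because Asns and Chac1 rose and Ddit3 fell between D0 and D2. ATF4 with a C/EBP partner binds a composite element, searched here as TGATGNAA on both strands. The windows ran from 250 bases before to 50 bases after each RefSeq gene start (GRCm38.p6). A match lay in 1304 of 32851 windows (3.97%). Of the members, 8 had windows (9 windows in all), and Asns, Trib3 and Chac1 held a match. The 250 bases before the start are printed 5′ to 3′ on the gene's strand, with the match in capitals. For Trib3, whose match lies after the start, only 30 bases are shown. Asns lies on chromosome 6, Chac1 and Trib3 on chromosome 2, and Ddit3 on chromosome 10.
Asns (chr6.0:7693210-7693459, - strand): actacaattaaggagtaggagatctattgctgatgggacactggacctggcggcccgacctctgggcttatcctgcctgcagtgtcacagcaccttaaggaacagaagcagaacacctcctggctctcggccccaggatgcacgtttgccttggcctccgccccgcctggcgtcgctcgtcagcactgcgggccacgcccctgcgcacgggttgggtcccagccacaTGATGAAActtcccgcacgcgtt
Chac1 (chr2.0:119350992-119351241, + strand): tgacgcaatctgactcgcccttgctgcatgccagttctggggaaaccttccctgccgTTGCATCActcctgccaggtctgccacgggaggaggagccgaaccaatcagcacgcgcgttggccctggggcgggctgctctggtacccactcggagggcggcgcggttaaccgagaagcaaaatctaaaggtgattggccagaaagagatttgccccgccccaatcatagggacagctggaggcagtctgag
Trib3 (chr2:152344028-152344057, - strand): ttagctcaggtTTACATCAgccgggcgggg
Ddit3 (chr10.0:127290543-127290792, + strand): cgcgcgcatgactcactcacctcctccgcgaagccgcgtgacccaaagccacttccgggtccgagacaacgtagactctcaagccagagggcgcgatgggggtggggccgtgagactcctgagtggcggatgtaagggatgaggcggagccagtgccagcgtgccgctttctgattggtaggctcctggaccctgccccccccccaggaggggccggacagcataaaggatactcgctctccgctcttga
The Asns match began at position -23 from the start and read TGATGAAA on the gene's strand. The Chac1 match began at position -193 and the Trib3 match at position 15, both on the opposite strand. These letters are not in the Ddit3 window, nor in those of Atf4, Atf5, Ddit4 and Sesn2. Sequence outside the windows was not searched, so a site further away would be missed. Whether a match goes with the direction of change was not tested. A match describes the sequence and is not a measurement of binding.

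Library totals lay between 19452460 and 27992092 counts, and 3 counts, taken as the floor of detection, equal 0.107 to 0.154 CPM, a unit of counts relative to the library total. Levels are in CPM with TMM scaling, which corrects for differences in library composition. The TMM factors lay between 1.113 and 1.213 at D0 and between 0.8599 and 0.9072 at D2. Ldha checks the labels. At D0 it averaged 610 ± 66.2 CPM in WT (SD, n = 2) and 99.4 ± 7.16 CPM in KO (n = 3). At D2 the averages were 2900 ± 179 and 110 ± 7.17 CPM (n = 3 each). No KO library overlapped a WT library for Ldha. The 10 NK markers summed to 11300 to 12800 CPM at D0 and 41400 to 50100 CPM at D2, led by Gzmb. T-cell markers (6 of 8 in the table) summed to at most 30.7 CPM, B-cell markers (5 of 6) to 9.28 CPM and neutrophil markers (6 of 6) to 7.36 CPM. Dendritic-cell markers (5 of 5, led by Itgax) ran from 643 to 762 CPM at D0 and from 225 to 342 CPM at D2. Markers of other innate lymphoid cells (6 of 6, led by Gata3) ran from 133 to 184 CPM at D0 and from 61.9 to 75.5 CPM at D2. Those of macrophages and monocytes (6 of 6, led by Ly6c2) ran from 258 to 513 CPM. Those of red cells and platelets (6 of 6, led by Hbb-bs) ran from 29.0 to 705 CPM. No listed marker in the table was at 0 in all libraries. Such sums cannot tell RNA of other cells from expression of the same genes by the sorted NK cells, and are not measures of cell content. The part of other cells in the day changes below was not tested, and in bulk RNA fewer cells of a type and less RNA per cell cannot be told apart.

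The members did not move as a block between D0 and D2. In the main fit, without a correction for base composition, Asns and Chac1 rose strongly in both genotypes. In the same fit Ddit3, Ddit4 and Sesn2 fell to about the same extent in both, and Atf4 itself changed little. With that correction, described below, Atf4 rose by 0.48 in WT (edgeR adjusted p = 0.038) and 0.95 in KO (adjusted p = 0.00019). The fall of Sesn2 was then called in WT (-0.97, edgeR adjusted p = 0.0079) and not in KO. In WT cells 3 of the 8 tested members were called higher (Asns, Chac1 and Atf4) and 3 lower by edgeR at an adjusted p under 0.05. Over all 13711 genes tested, 27.5% were called higher and 26.0% lower. In KO cells the counts were again 3 higher (Asns, Chac1 and Trib3) and 3 lower, against 27.0% and 34.5% of all genes. Without overlap between the compared groups, 4 members were higher and 3 lower at D2 in each genotype. Over all genes, 33.6% were higher and 34.9% lower without overlap in WT, and 29.2% and 37.8% in KO. With changes between days in so many genes, these counts are not a result about the members. Median log2 fold changes over the 8 were 0.70 in WT (all genes -0.07) and 0.17 in KO (all genes -0.20). These medians lie between members that moved in opposite directions and describe none of them. In KO the all-gene median moved by 0.11 under another scaling (RLE), so called KO changes are also given relative to it.

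**Figure D1:**
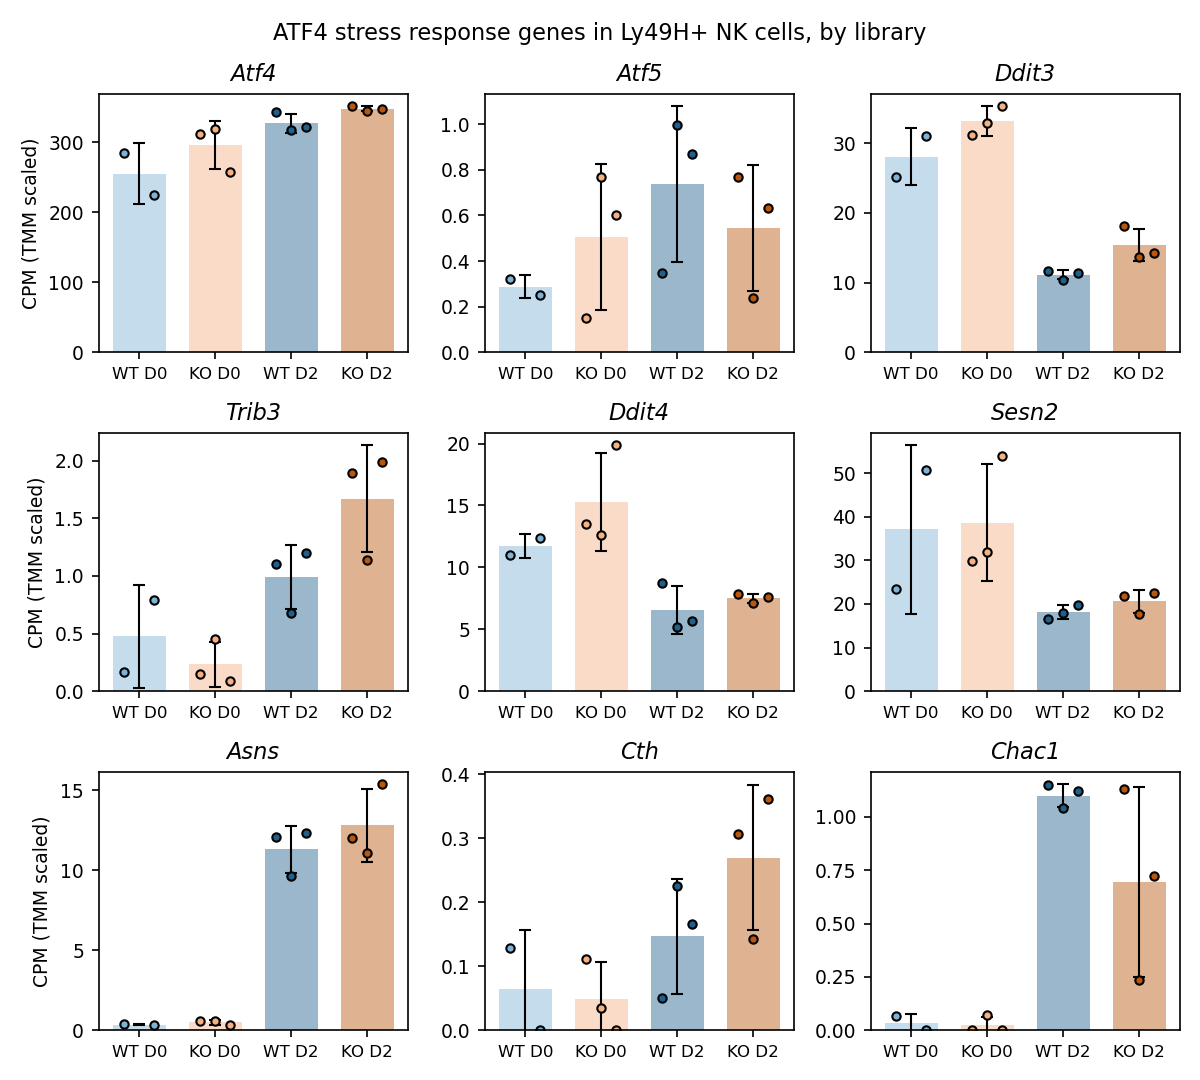
CPM (TMM scaled, linear axis from 0) of the 9 genes in each of the 11 libraries, as points over the group mean (bar) with its SD. Asns and Chac1 are near 0 at D0 and higher at D2, where Chac1 reaches at most 1.15 CPM. Ddit3, Ddit4 and Sesn2 are lower at D2, and Atf4 is high in all 4 groups.

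Atf4 encodes the transcription factor at the centre of the pathway. Its level was 285 and 224 CPM in WT D0, 312, 319 and 257 CPM in KO D0, 343, 317 and 322 CPM in WT D2, and 352, 344 and 348 CPM in KO D2. Every D2 library was above every D0 library of its own genotype, and the D2 libraries lay close together. Means were 255 ± 43.3, 296 ± 34.0, 327 ± 14.0 and 348 ± 3.68 CPM in the same order. The D2 against D0 log2 fold change was 0.36 in WT (SE 0.13, 95% interval 0.07 to 0.65, edgeR adjusted p = 0.038). In KO it was 0.23 (SE 0.12, interval -0.02 to 0.49, adjusted p = 0.11), or 0.44 relative to the all-gene median. The WT call was lost in 9 of the 11 fits that left out 1 library each, where the log2 fold change ran from 0.15 to 0.48. It held when replicate 3 of KO D0 or replicate 2 of WT D0 was left out, and was lowest without WT D0 replicate 3 (adjusted p = 0.46). It was also lost with no filter on low counts (0.30, adjusted p = 0.10), with a filter of at least 5 mean CPM (0.23, adjusted p = 0.18) and in a fit of the WT libraries alone (0.29, adjusted p = 0.12). The KO change passed the edgeR test under RLE scaling (0.34, adjusted p = 0.028), and DESeq2 called it (0.34, adjusted p = 0.021). It did not pass with no filter, with the filter of at least 5 mean CPM or in a fit of the KO libraries alone. Nor did it pass with the replicate number of the titles as a block across days. Per kilobase of transcript, Atf4 was the most abundant of the 9 in every group, at 126 (WT D0), 147 (KO D0), 162 (WT D2) and 172 (KO D2) CPM per kb.

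Atf5 encodes a related bZIP factor whose mRNA is also translated through upstream reading frames. It was scarce, at 0.323 and 0.253 CPM in WT D0, 0.150, 0.768 and 0.601 CPM in KO D0, 0.349, 0.995 and 0.870 CPM in WT D2, and 0.767, 0.237 and 0.633 CPM in KO D2. The WT D2 libraries lay above both WT D0 libraries, and the KO groups overlapped. The log2 fold change of D2 against D0 was 1.35 in WT (SE 0.70, adjusted p = 0.12) and 0.10 in KO (SE 0.62, adjusted p = 0.89). The group totals were 18 to 50 counts, so changes of moderate size could not be detected at this depth. Atf5 overlaps Il4i1b and Nup62 in the annotation, and strand use in the counting is not given in the sources used here.

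Ddit3 encodes CHOP, a bZIP factor induced downstream of ATF4 and associated with cell death under lasting stress. Its level was 25.2 and 31.0 CPM in WT D0 and 31.2, 33.0 and 35.4 CPM in KO D0. At D2 it was 11.6, 10.4 and 11.4 CPM in WT and 18.1, 13.7 and 14.3 CPM in KO. All 6 D2 libraries lay below all 5 D0 libraries, and on each day every KO library lay above every WT library. Ddit3 fell by 1.33 on the log2 scale in WT (SE 0.17, adjusted p = 2.1e-05), to a level 2.52-fold lower. In KO it fell by 1.11 (SE 0.15, adjusted p = 3.7e-05), or by 0.91 relative to the all-gene median. Both calls held in all 11 fits without 1 library. Ddit3 (chromosome 10, 127290793 to 127296291, GRCm38.p6) overlaps Mars1 and Mbd6. Mars1, a tRNA synthetase gene, was called higher at D2 in both genotypes, opposite to Ddit3. How reads in the overlap were assigned is not given in the sources used here.

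Trib3 encodes a pseudokinase that binds ATF4 and CHOP and restrains them, and is itself a target of both. It stood at 0.162 and 0.791 CPM in WT D0, 0.150, 0.454 and 0.0924 CPM in KO D0, 1.10, 0.679 and 1.20 CPM in WT D2, and 1.89, 1.14 and 1.99 CPM in KO D2. The KO D2 libraries lay above all KO D0 libraries, whereas WT D0 replicate 3 lay above WT D2 replicate 2. Trib3 rose in KO, with a log2 fold change of 2.77 (SE 0.61, interval 1.44 to 4.10, adjusted p = 0.0016), or 2.97 relative to the all-gene median. In WT the value was 1.05 (SE 0.64, interval -0.35 to 2.44, adjusted p = 0.19). Without WT D0 replicate 3 it was 2.53 and passed (adjusted p = 0.031), with 1 library left in that group. The difference between these changes was 1.72 (SE 0.89, interval -0.20 to 3.65, adjusted p = 0.36), so the genotypes are not shown to differ.

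Ddit4 and Sesn2 encode REDD1 and Sestrin2, both inhibitors of the growth kinase complex mTORC1, acting through the TSC complex and the amino acid sensing GATOR complexes respectively. Ddit4 was at 11 and 12.4 CPM in WT D0, 13.5, 12.6 and 19.9 CPM in KO D0, 8.76, 5.16 and 5.67 CPM in WT D2, and 7.83, 7.11 and 7.60 CPM in KO D2. No D2 library reached the lowest D0 library. Ddit4 fell by 0.84 on the log2 scale in WT (SE 0.25, adjusted p = 0.014) and by 1.03 in KO (SE 0.23, adjusted p = 0.0019), where the value relative to the all-gene median was -0.82. The WT call was lost without WT D0 replicate 3 (-0.80, adjusted p = 0.062) or WT D2 replicate 2 (-0.69, adjusted p = 0.051).

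Sesn2 was at 23.4 and 50.8 CPM in WT D0, 29.8, 31.9 and 54.0 CPM in KO D0, 16.6, 18.0 and 19.7 CPM in WT D2, and 21.8, 17.7 and 22.4 CPM in KO D2. The D2 libraries of both genotypes were alike, and replicate 3 was the highest D0 library in both genotypes. Sesn2 fell by 1.03 in WT (SE 0.30, adjusted p = 0.012) and by 0.90 in KO (SE 0.28, adjusted p = 0.013), where the value relative to the all-gene median was -0.70. Without WT D0 replicate 3 the WT value was -0.42 (adjusted p = 0.29), and without KO D0 replicate 3 the KO value was -0.64 (adjusted p = 0.051). The fall of Sesn2 in each genotype therefore passed the test only with that D0 library included.

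Asns encodes asparagine synthetase, which makes asparagine from aspartate and glutamine and is a classic amino acid response target. It was at 0.356 and 0.316 CPM in WT D0 and 0.562, 0.558 and 0.323 CPM in KO D0. At D2 it was at 12.1, 9.64 and 12.3 CPM in WT and 12.0, 11.1 and 15.4 CPM in KO. The highest D0 library lay far below the lowest D2 library. The log2 fold change was 5.06 in WT (SE 0.32, interval 4.36 to 5.76, adjusted p = 9e-08), a 33.3-fold rise. In KO it was 4.70 (SE 0.26, interval 4.13 to 5.27, adjusted p = 2.7e-08), a 26.0-fold rise and 4.90 relative to the all-gene median. Leaving out any 1 library kept the log2 change between 4.93 and 5.16 in WT and between 4.45 and 4.76 in KO. Asns went from 0.167 and 0.239 CPM per kb at D0 (WT and KO) to 5.63 and 6.36 at D2. It thereby passed the Ddit4 level, which went from 6.65 and 8.73 to 3.72 and 4.28 CPM per kb.

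Chac1 encodes an enzyme that degrades glutathione and is induced by ATF4. It had 2 counts in all of WT D0 and 2 in all of KO D0, with no count in WT replicate 3 and KO replicates 1 and 3. At D2 it was at 1.15, 1.04 and 1.12 CPM in WT (73 counts) and 1.13, 0.237 and 0.724 CPM in KO (43 counts). All 6 D2 libraries lay above all D0 libraries, and KO D2 replicate 2 was the lowest of the 6. The ratio of D2 to D0 counts, scaled for library size, was 34.4 in WT (exact 95% interval 9.19 to 290) and 26.4 in KO (6.87 to 225). These intervals cover counting error only. edgeR called both rises, with an adjusted p = 0.00092 in WT and 0.00098 in KO. The fitted log2 fold changes, 4.90 and 4.50 (4.70 in KO relative to the all-gene median), depend on the prior count. They reached 7.70 without WT D0 replicate 2 and 7.04 without KO D0 replicate 2, the libraries that held the D0 counts.

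Cth encodes cystathionine gamma-lyase, which makes cysteine from cystathionine. It was near the floor of detection throughout, at 0.129 and 0 CPM in WT D0, 0.112, 0.0349 and 0 CPM in KO D0, 0.0498, 0.226 and 0.166 CPM in WT D2, and 0.307, 0.142 and 0.362 CPM in KO D2. The groups held 4, 4, 10 and 17 counts, too few for the test across genes. The D2 to D0 ratio of counts was 2.36 in WT (exact interval 0.680 to 10.3) and 5.22 in KO (1.70 to 21.3), with counting error only.

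**Figure D2:**
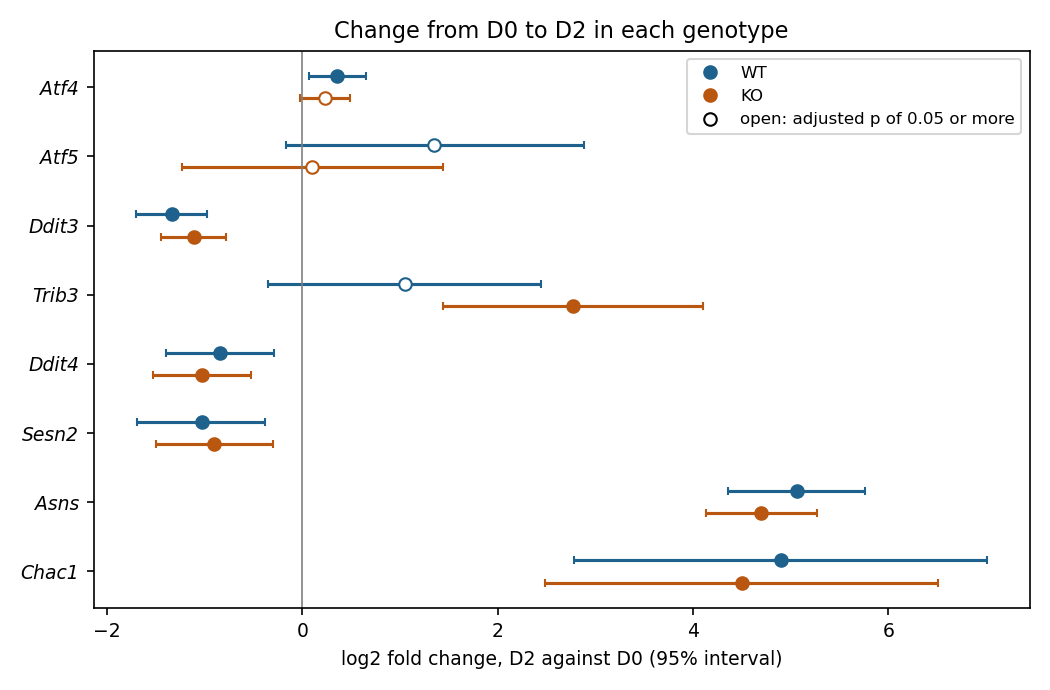
Log2 fold change of D2 against D0 in WT (blue) and KO (orange) for the 8 tested genes, with 95% intervals from the edgeR fit. Filled points passed an adjusted p under 0.05. Asns and Chac1 lie near 5 in both genotypes, Ddit3, Ddit4 and Sesn2 lie between -0.84 and -1.33, and Atf4 is close to 0.

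Between the genotypes no member passed the main edgeR test, which did not pair libraries, on either day. At D2, 0 of 8 were called, against 1.61% of all genes called higher in KO and 14.5% called lower. Ddit3 alone had an unadjusted p under 0.05, and DESeq2 called it alone (adjusted p = 0.0087). Ddit3 was 0.46 higher in KO on the log2 scale (SE 0.15, interval 0.13 to 0.80, edgeR adjusted p = 0.061). A fit with the replicate number of the titles as a block within each day also called it (adjusted p = 0.019), as did RLE scaling (0.56, adjusted p = 0.032). Ddit3 and Atf4 were the only members whose D2 groups did not overlap, both higher in KO, as for 12.4% of all genes. No member had non-overlapping lower values in KO, against 21.3% of all genes. The Atf4 difference was 0.09 (SE 0.12, interval -0.17 to 0.35, adjusted p = 0.73), and 0.70 (adjusted p = 0.011) with a correction for base composition described below.

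Asns differed by 0.18 at D2 (interval -0.27 to 0.63, adjusted p = 0.69), Ddit4 by 0.20 (interval -0.31 to 0.72, adjusted p = 0.68) and Sesn2 by 0.19 (interval -0.42 to 0.79, adjusted p = 0.77). These intervals leave out a doubling or a halving by KO for all 3 genes, but only in the fit without the base composition correction. With that correction the Sesn2 difference was 0.73 (edgeR adjusted p = 0.074), so a doubling of Sesn2 is not excluded. Trib3 was at 0.75 (interval -0.41 to 1.91, adjusted p = 0.45), Atf5 at -0.45 (interval -1.76 to 0.86, adjusted p = 0.74) and Chac1 at -0.67 (interval -1.93 to 0.60, adjusted p = 0.56). The intervals of these 3 scarce genes are wide and allow differences in either direction. Each KO D2 library had more Trib3 than the WT D2 library of the same number, and the fit with the replicate block within day gave 0.75 (adjusted p = 0.36). By counts alone the KO to WT ratio of Chac1 at D2 was 0.623 (exact interval 0.417 to 0.920), and that of Cth was 1.80 (0.777 to 4.39). These intervals cover counting error only and leave out the spread between libraries. Without KO D2 replicate 2, the lowest library, the fitted Chac1 difference was -0.26.

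At D0, 0 of 8 members were called, 0 had an unadjusted p under 0.05 and DESeq2 called 0. Of all genes, 0.0948% were called higher in KO and 0.0583% lower. Ddit3 (0.24, interval -0.12 to 0.60) and Ddit4 (0.39, interval -0.17 to 0.94) had higher values in every KO library than in either WT library, as did 10.6% of all genes. No member was lower in every KO library, against 5.91% of all genes. Asns differed by 0.54 (interval -0.24 to 1.31), Atf4 by 0.22 (interval -0.07 to 0.51) and Sesn2 by 0.05 (interval -0.61 to 0.72). The adjusted p was 1.0 for each member. The D2 against D0 change did not pass the test of a difference between genotypes in any of the 8, with 0 at an unadjusted p under 0.05 and 0 by DESeq2, which gave Atf5 and Chac1 no adjusted p. Over all genes 0.124% were called with a larger value in KO and 5.72% with a smaller one. The difference for Asns was -0.36 (interval -1.25 to 0.53, adjusted p = 0.77), for Atf4 -0.13 (interval -0.51 to 0.26, adjusted p = 0.83) and for Ddit3 0.22 (interval -0.27 to 0.71, adjusted p = 0.72). These are values of the main fit. With the base composition correction described below, the Atf4 and Ddit3 differences changed sign. With the block within day added to it, the Atf4 difference was called as larger in KO, as given at the end.

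Base composition moved with the genotype at D2, and the members differ in it. For each gene the peak GC is the highest GC share of any 100-base window in its longest transcript. At D2, 32.8% of genes with a peak GC of at least 75% were called lower in KO (1656 of 5042), against 3.83% of the other genes (298 of 7777). Atf4 has a peak GC of 80%, Sesn2 of 78% and Atf5 of 77%. Ddit4 and Chac1 are at 74%, Trib3 at 71%, Asns at 63%, Cth at 61% and Ddit3 at 55%. The median of genes with a high peak GC minus that of the others, in log2 CPM around each gene's mean, ran from -0.523 to -0.439 in KO D2. It ran from -0.150 to 0.217 in WT D2 and from 0.097 to 0.308 at D0. With an offset that removed each library's trend along peak GC, the KO against WT value of Atf4 at D2 went from 0.09 to 0.70 (adjusted p = 0.011). That of Sesn2 went from 0.19 to 0.73 (adjusted p = 0.074). Ddit3 moved little, to 0.39 (adjusted p = 0.31), and Asns to 0.10 (adjusted p = 0.82). With the block within day added to the offset, Atf4 (0.72, adjusted p = 0.00019), Sesn2 (0.72, adjusted p = 0.00071) and Ddit3 (0.38, adjusted p = 0.042) were all called higher in KO. The offset also raised the KO change of Atf4 between days to 0.95 (adjusted p = 0.00019) and took that of Sesn2 to -0.31 (adjusted p = 0.30). The part of base composition in these differences was not tested.

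**Figure D3:**
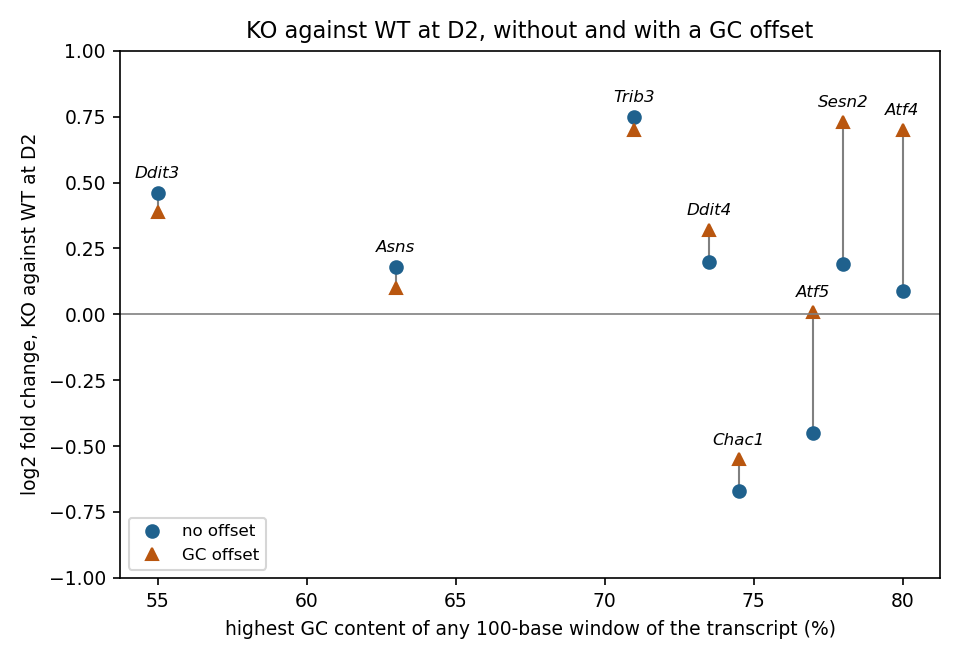
KO against WT log2 fold change at D2 for the 8 tested genes, by the highest GC percentage of any 100-base window of the transcript, without (circles) and with (triangles) the GC offset. Ddit4 and Chac1, both at 74%, are drawn 0.5 to the left and right. Atf4 and Sesn2, at 80% and 78%, move to about 0.7 with the offset, while Ddit3 and Asns hardly move.

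The rest of the pathway was read from 75 other genes in 7 roles, of which 69 were tested. From D0 to D2 in WT, 34 were called higher and 11 lower, and in KO 29 higher and 22 lower, read against the same shares of all genes as above. The median log2 fold change over the 69 was 0.56 in WT and 0.21 in KO. Between genotypes at D2, 1 was called higher in KO and 18 lower of the 69, against 1.61% and 14.5% of all genes, the shares to set beside the counts of each role below. At D0 none was called by edgeR or by DESeq2 (2 had an unadjusted p under 0.05). Of the 18 lower at D2, 14 have a peak GC of at least 75%, and the other 4 are Eif2ak4, Herpud1, Slc1a4 and Slc3a2. Over all genes called lower at D2, 1656 have a peak GC of at least 75% and 298 a lower one. The split in the wider list is therefore not a result about that list. With the GC offset 2 genes of the wider list were called higher and 14 lower.

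Most metabolic targets of ATF4 rose, as Asns did. Of 9 tested genes for amino acid synthesis and one-carbon metabolism, 6 rose in WT and 6 in KO. None was called lower by edgeR or DESeq2 in either genotype, with 0 in WT and 1 in KO lower at an unadjusted p under 0.05. Mthfd2, a mitochondrial folate enzyme, went from 10.3 ± 1.02 CPM in WT D0 (SD, n = 2) to 128 ± 3.39 CPM in WT D2 (n = 3), a log2 fold change of 3.64 (SE 0.18, adjusted p = 1.3e-08). Psat1 and Phgdh, enzymes of serine synthesis, rose by 2.70 (SE 0.17) and 2.46 (SE 0.17) in WT and by 2.45 and 2.11 in KO. None of the 9 was called between genotypes at D2 by edgeR or DESeq2, and the median difference was -0.04. Mthfd2 alone had an unadjusted p under 0.05, at -0.36 (SE 0.13, edgeR adjusted p = 0.095).

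All 12 genes for tRNA charging and export rose in WT, with a median of 1.48, and in KO 10 rose and 1 fell, with a median of 1.35. Iars1, Eprs1 and Tars1, which charge tRNAs for isoleucine, for glutamate and proline, and for threonine, rose by 2.01, 1.77 and 1.54 in WT. Gars1 (glycine) averaged 147 ± 66.5 CPM in WT D2 and 35.4 ± 4.23 CPM in KO D2, a log2 difference of -2.05 (SE 0.37, adjusted p = 0.0018). It was the gene that fell in KO between days (-0.89, SE 0.36, adjusted p = 0.045). Xpot, the tRNA exporter, was also lower in KO at D2 (-1.25, SE 0.23, adjusted p = 0.0023). With the GC offset these differences were -1.37 (adjusted p = 0.0054) and -0.60 (adjusted p = 0.025).

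Of 9 amino acid transporters 6 rose in WT, and in KO 4 rose and 2 fell. Slc7a5 and Slc3a2 form the large neutral amino acid exchanger. Slc7a5 went from 4.15 ± 0.990 to 51.3 ± 20.6 CPM in WT (log2 3.63, SE 0.37, adjusted p = 4e-06) and from 6.01 ± 1.40 to 22.2 ± 3.96 CPM in KO (1.88, SE 0.30, adjusted p = 0.00012). Slc7a1, a cationic amino acid transporter, rose by 2.41 in WT and 2.06 in KO. Slc1a4, a transporter of small neutral amino acids, rose by 2.64 in WT. At D2, 4 of 9 were lower in KO, among them Slc3a2 (-1.09, SE 0.13, adjusted p = 0.00018), the glutamine transporter Slc1a5 (-1.78, SE 0.36, adjusted p = 0.0038) and Slc7a5 (-1.21, SE 0.28, adjusted p = 0.0096). Slc3a2 (-1.05) and Slc1a5 (-1.14) kept the call with the GC offset, and Slc7a5 did not (-0.57, adjusted p = 0.094). Slc7a5 also lost it without KO D2 replicate 1 (adjusted p = 0.055) or WT D2 replicate 2 (adjusted p = 0.054).

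**Figure D4:**
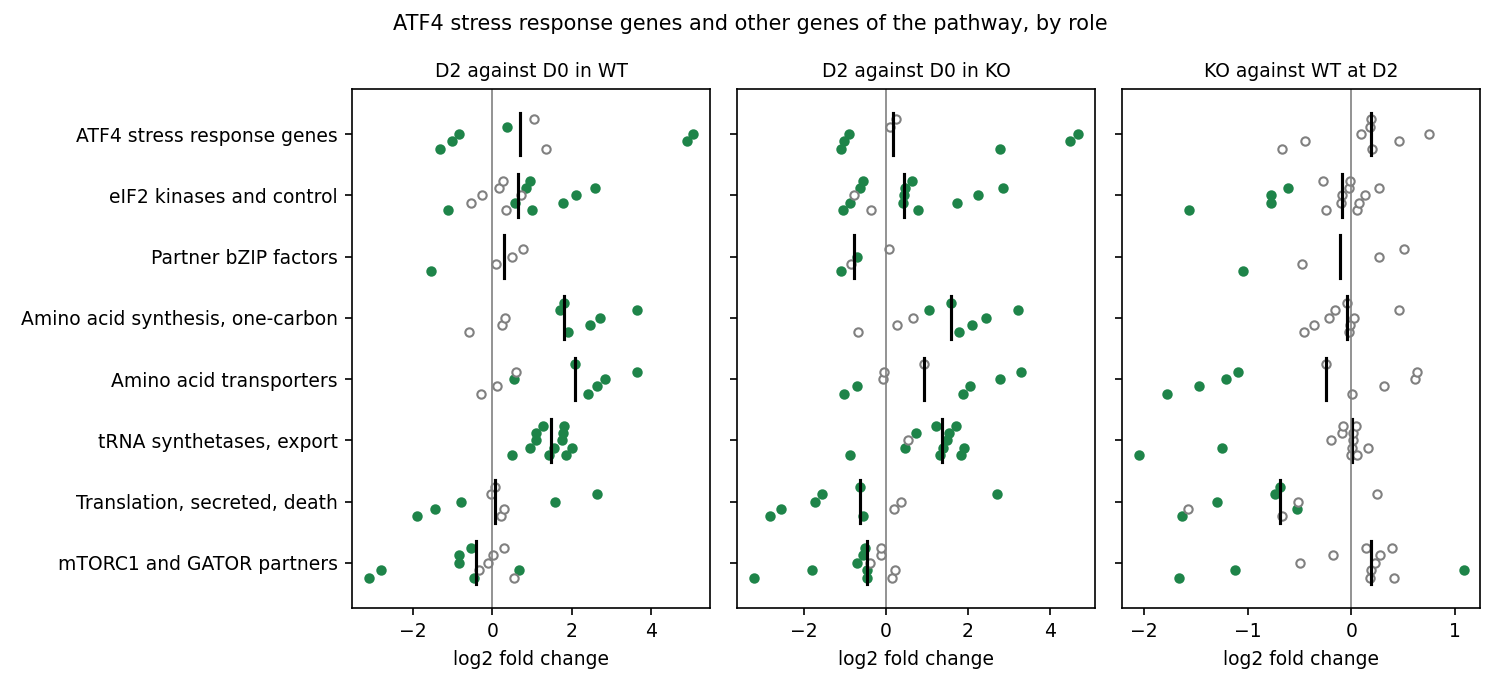
Log2 fold changes of the 8 tested genes (top line) and of the 69 other tested pathway genes by role, for D2 against D0 in WT, D2 against D0 in KO and KO against WT at D2. Filled green points passed an adjusted p under 0.05, open grey points did not, and black bars are medians. Synthesis and tRNA charging genes lie mostly right of 0 between days, and death-linked and mTORC1-linked genes mostly left of 0 in KO.

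Of 14 genes for eIF2 kinases, their regulators, eIF2 phosphatase subunits, the eIF2 alpha subunit and its exchange factor eIF2B, 7 rose and 1 fell in WT, and 8 rose and 4 fell in KO. Eif2ak2 (PKR, the kinase for double-stranded RNA) went from 30.8 ± 6.57 to 185 ± 30.9 CPM in WT (log2 2.59, SE 0.19, adjusted p = 2.5e-07) and rose by 2.86 in KO. Eif2s1, the eIF2 alpha subunit, rose by 2.10 and Eif2b3, of the exchange factor eIF2B, by 1.77 in WT. Impact, an inhibitor of the kinase GCN2, fell by 1.12. Eif2ak1 (HRI, the haem-regulated kinase) was lower in KO at D2 (-0.77, SE 0.10, adjusted p = 0.00031), as were Eif2ak4 (GCN2, the amino acid sensing kinase; -0.77, SE 0.16, adjusted p = 0.005) and the phosphatase subunit Ppp1r15b (-0.61, SE 0.10, adjusted p = 0.0013). Ppp1r15b lost the call with the GC offset (-0.18, adjusted p = 0.33).

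Of 4 tested partner bZIP factors edgeR and DESeq2 called 0 higher at D2 in either genotype, with 0 at an unadjusted p under 0.05. Jdp2, a repressor, fell by 1.55 in WT (SE 0.28, adjusted p = 0.00044), and Cebpg, an ATF4 partner, was lower in KO at D2 (-1.04, SE 0.20, adjusted p = 0.0033). Of 9 tested translation, secreted and death-linked targets, 2 rose and 3 fell in WT, and 1 rose and 6 fell in KO. Bbc3 (PUMA), which promotes apoptosis, fell by 1.89 in WT and 2.57 in KO, and the stress gene Gadd45a by 1.45 and 2.84. These fell along with Ddit3. Sqstm1, an autophagy receptor, fell by 0.80 and 1.56. The rises in WT were of Ero1a, an oxidase of disulphide bond formation (1.58, SE 0.29), and of the secreted Stc2 (2.64, SE 0.91). Stc2 was scarce, with 5 counts in all of WT D0 and 34 in WT D2. Of the fits that left out 1 library, only 5 tested it. It lost its call in 1 of these, without WT D0 replicate 2 (1.63), where 1 library was left in that group. At D2, 5 of the 9 were lower in KO, among them Ero1a (-1.63, SE 0.26, adjusted p = 0.00081), Gadd45a (-1.29, SE 0.19, adjusted p = 0.00063) and Sqstm1 (-0.74, SE 0.13, adjusted p = 0.0013). Gadd45a and Sqstm1 lost the call with the GC offset (-0.67, adjusted p = 0.051, and -0.30, adjusted p = 0.13).

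Of 12 tested partners of Ddit4 and Sesn2 in mTORC1 control, 1 rose and 6 fell in WT, and none rose and 7 fell in KO by edgeR, with the same counts in KO at an unadjusted p under 0.05 (DESeq2 called 4 lower). Sesn1, a relative of Sesn2, went from 134 ± 18.3 to 15.5 ± 2.57 CPM in WT (log2 -3.12, SE 0.16, adjusted p = 2.1e-08) and fell by 3.24 in KO. It fell with Sesn2 and by more. Txnip, an inhibitor of glucose uptake that also acts with REDD1, fell by 2.80 in WT and 1.81 in KO. At D2 it was the pathway gene called higher in KO, at 203 ± 24.8 against 96.1 ± 3.45 CPM (log2 1.08, SE 0.14, adjusted p = 0.00032). Rheb, the GTPase that activates mTORC1, and Mios, a GATOR subunit, were lower in KO at D2 (-1.66, SE 0.20, adjusted p = 0.00017, and -1.12, SE 0.19, adjusted p = 0.0012). In WT Mios was the gene that rose (0.67, adjusted p = 0.016), a call lost without WT D0 replicate 3, WT D2 replicate 2 or WT D2 replicate 3. Nprl2, another GATOR subunit, fell by 0.84, which was not called without WT D0 replicate 3 (adjusted p = 0.057).

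Likeness to a member was measured as the root-mean-square difference of centred log2 CPM over the 11 libraries, among 9097 other tested genes that averaged 5 CPM or more. The 3 nearest to Atf4 were Mtif2 (0.073), Zfand2a (0.097) and Ccnt1 (0.097), where Atf4's own deviation from its mean was 0.196. Among the nearest to Ddit3 were Rit1 (0.094) and Map1lc3b (0.101), against a deviation of 0.659. The 3 nearest to Asns were Tgtp1 (0.238), Oasl1 (0.256) and Gbp6 (0.272), against 2.322. Tgtp1, Oasl1 and Gbp6 are interferon-induced genes. None of these neighbouring genes is in the wider pathway list. The members themselves were left out of the comparison, so they could not appear. Tgtp1 rose by 4.58 in WT and 4.51 in KO, Oasl1 by 4.64 and 4.81, and Gbp6 by 4.47 and 4.90. These likenesses are a description over libraries that share the contrast between title days.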

How the data were processed

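The deposited table holds whole-number counts per gene by Entrez identifier for 24421 genes in 11 libraries. Per the labels' protocols, RNA was amplified with a low-input cDNA kit. Per the submitters' processing notes the tools include DESeq2 1.22.2, Salmon 0.13.1 (listed again as 13.1), bcl2fastq 2.20.0.422 and Trimmomatic 0.36. The build named is mm10. Their roles are not given in the sources used here, and the counts may be rounded estimates. RefSeq (GRCm38.p6) matched 24387 identifiers, and 34 were unmatched.

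The main test was the quasi-likelihood test of edgeR 4.0.16 (R 4.3.3), robust and TMM scaled. Its filterByExpr step left 13711 genes. Since WT D0 has 2 libraries, the 4 groups were fitted together with 7 residual degrees of freedom. Benjamini-Hochberg adjustment ran over all genes tested, with 0.05 as the threshold. SE and 95% intervals come from the quasi-likelihood F statistic. The 5 contrasts share groups. The fit was tested on simulated data. P-values measure the spread between samples that the labels call individual mice.

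The members and lists were chosen with earlier results of these data known. The text names all members, Ldha, and per role of the wider list up to 3 called genes per direction with the smallest p in KO against WT at D2 and in D2 against D0 in WT. Where none is called it names the gene with the smallest p. It also names the 3 genes nearest to Atf4, Ddit3 and Asns (mean of at least 5 CPM, prior count 2, provisional names left out), of which 1 is not reported here. Of the called genes outside this rule, Mars1 and Herpud1 were named after their values were seen.

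Replicate numbers were checked for pairing by correlating deviations from group means. For KO and WT libraries of the same number and day, the D2 correlations were 0.217, 0.198 and 0.114. The numbers were therefore taken to pair at D2, which the block within day uses and the main fit does not. KO D0 and WT D2 libraries of the same number gave similar values (0.218, 0.152 and 0.201). The check therefore cannot tell shared mice from another factor tied to the number. D0 shares only 2 numbers (0.0275 and 0.410), and KO D0 replicate 1 gave 0.376 with WT D0 replicate 2. With 2 libraries in WT D0 their deviations mirror each other, so the D0 values cannot decide on pairing. Other settings were RLE scaling, DESeq2 1.42.0, no filter, a mean of at least 5 CPM, only the compared groups, replicate blocks, the GC offset (12819 genes, 93.5% of those tested) and leaving out each library. Peak GC came from GENCODE transcripts.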

Additional observations from a re-analysis of the deposited data

Results flagged for a closer look

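None of the 9 members is listed here. In 8 genes of the wider pathway list, the D2 against D0 change differed between genotypes by the edgeR test of that difference (1 with a larger and 7 with a smaller value in KO, of 69 tested). Over all genes the shares were 0.124% and 5.72%. The log2 difference of the change (KO minus WT) was -1.26 for Slc3a2 (SE 0.20, adjusted p = 0.0084), -0.80 for Eif2ak1 (SE 0.15, adjusted p = 0.015), -1.38 for Gadd45a (SE 0.27, adjusted p = 0.018) and 0.99 for Txnip (SE 0.21, adjusted p = 0.022). It was -1.24 for Rheb (SE 0.29, adjusted p = 0.03), -0.77 for Sqstm1 (SE 0.19, adjusted p = 0.034), -1.15 for Mios (SE 0.28, adjusted p = 0.034) and -1.74 for Slc7a5 (SE 0.44, adjusted p = 0.039). Slc3a2 lost the call in 1 of the 11 fits without 1 library, and the other 7 genes in 5 to 9 of them. With the GC offset only Slc3a2 of these 8 was still called. For Slc3a2 the means were 278 ± 14.8 CPM in WT D0 (SD, n = 2), 406 ± 63.4 in WT D2, 314 ± 31.4 in KO D0 and 191 ± 11.5 in KO D2 (n = 3 each).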

How the results depend on the processing

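For D2 against D0, the number of members called ranged from 4 to 6 in WT and from 5 to 6 in KO over the fits that left out 1 library (6 in each with all libraries). Between genotypes it was 0 in all of these fits at D2 and at D0, and 0 for the difference of the changes. At D2 it was 1 (Ddit3) with RLE scaling, DESeq2, a mean of at least 5 CPM, the replicate block across days and the block within day, 1 (Atf4) with the GC offset, and 3 with the block within day and GC offset together. That last setting also called 1 member at D0 (Ddit3, 0.68, adjusted p = 0.045) and 1 for the difference of the changes (Atf4, 0.60, adjusted p = 0.016). The replicate block alone changed no other member call.

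Estimates that changed sign had not been called in the main fit. Among them were Atf5 at D2 (0.01 with the GC offset) and Chac1 at D0 (0.10 with the block within day, 0.06 with the GC offset added). For the difference of the changes they were Atf4 (0.47 with the GC offset), Ddit3 (-0.08 with the GC offset, -0.30 with the block added) and Sesn2 (-0.08 with the block within day). Atf4 also changed sign with the block and offset together, and was called there, as given above. Leaving out 1 library gave ranges that cross 0 for Trib3 (-1.93 to 0.55), Chac1 (-2.87 to 2.57) and Sesn2 (-0.43 to 0.71) at D0 and for Atf5 between days in KO (-0.39 to 0.52). For the difference of the changes they were Atf4 (-0.30 to 0.04), Ddit4 (-0.33 to 0.08), Chac1 (-3.25 to 2.2) and Sesn2 (-0.53 to 0.60). Of the member estimates under other settings, 687 kept direction and call, 14 gained a call, 17 lost it and 25 changed sign.

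The wider list count for the difference of the changes was 8, and 5 with RLE, 20 and 24 with the blocks, 1 with the GC offset, 15 with block and offset, and 0 to 17 without 1 library. All genes called at D2 between genotypes were 221 higher and 1986 lower, 440 and 1762 with RLE, 697 and 1958 with DESeq2, 900 and 2544 with the block within day, 716 and 1210 with the GC offset, and 1582 and 1712 with the block within day and GC offset together. At D0 21 were called, 201 with the block within day and 4 with only the compared groups. Without a WT D0 library that group holds 1, assumed to vary like the others. Atf5, Trib3, Chac1 and Cth are limited by depth. The cause of these changes was not tested.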
